A study of Mus musculus with 32 samples.

Results

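The H3K4me3 peak lists of *MLL-AF9* leukemias with and without *Kat2a* were compared, with 2 libraries from *Kat2a* WT and 2 from *Kat2a* KO, of the 16 peak lists of the series, which cover 4 histone marks. Each library is named here by its genotype and replicate number. All animals carried floxed *Kat2a* alleles and were treated with pIpC. The WT animals carried no *Mx1-Cre*, and the KO animals carried 1 copy of this interferon-inducible recombinase transgene, which excises the floxed locus in blood cells and also in other tissues that respond to interferon. Lineage-depleted bone marrow cells were then transduced with a retrovirus encoding the *MLL-AF9* fusion and transplanted into lethally irradiated recipients, which keep some cells of their own. Bone marrow taken at terminal disease was pooled from 5 WT and from 4 KO animals, and 5000000 cells were used per condition. Both replicates of a genotype therefore stand for 1 pool of animals, and their spread is not a spread between leukemias. In such bulk samples fewer cells with a mark and less of the mark per cell cannot be told apart.

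Trimethylation of lysine 4 of histone H3 is laid down at active promoters by the Set1 and MLL methyltransferase complexes and is removed by the Kdm5 demethylases. It usually flanks the transcription start site (TSS), is strongest just downstream of it, and is most regular at promoters rich in CpG dinucleotides, whether or not the gene is strongly transcribed. Kat2a is the acetyltransferase of the SAGA and ATAC coactivator complexes, acts on H3K9 rather than on H3K4, and works at promoters that commonly carry H3K4me3. *MLL-AF9* fuses the N-terminal part of an H3K4 methyltransferase, without its catalytic domain, to a partner involved in elongation.

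A consensus region is a stretch of overlapping peaks, merged with an overlap of at least 1 bp, that holds a peak of both replicates of a genotype. There were 12641 consensus regions in WT and 13779 in KO. A protein-coding gene counted as marked where a consensus region touched the window from -1 kb to +500 bp around an annotated TSS (GENCODE M21, mm10). Of 21938 protein-coding genes, 10268 (46.8%) were marked in both genotypes, 375 in WT only, 650 in KO only and 10645 in neither. The lists hold no read counts, so that the depth is unknown and no interval could be given for a single peak.

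The fusion's self-renewal genes and the myeloid regulators were mostly marked in both genotypes, and most genes that differed in state had a peak in 1 of the 2 libraries of the other genotype. There were 78 genes marked in WT without any KO peak at a TSS, and 49 in KO without any WT peak. For each genotype 3 sequences are shown from genes of high rank among these, as examples of the stretches at which the lists differed. Each is the strand of the gene, 5′ to 3′, of the mm10 reference, within 150 bp of the summit of the strongest peak, without the bases annotated as untranslated. CpG dinucleotides are in capitals. The choice of these genes among the 78 and 49 was made after their values had been seen. In KO *Adra2a* and *Hrh3* ranked between *Nkain1* and *Hmgn3* and were passed over, since the windows at their summits lay largely in annotated untranslated sequence. In WT the windows lay at *Cd302* (chr2:60283749-60284048, minus strand, no exon) and *Csf2rb2* (chr15:78305170-78305469, minus strand, no exon) and at *Ctss* (chr3:95526900-95527046, plus strand, the end of a coding exon and the start of an intron).
Cd302: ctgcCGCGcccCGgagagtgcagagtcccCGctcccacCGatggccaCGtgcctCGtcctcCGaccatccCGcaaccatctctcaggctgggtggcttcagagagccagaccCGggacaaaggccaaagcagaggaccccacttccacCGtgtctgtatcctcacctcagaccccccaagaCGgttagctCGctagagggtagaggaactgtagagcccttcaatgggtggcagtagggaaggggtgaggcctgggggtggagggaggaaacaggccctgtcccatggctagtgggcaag
Csf2rb2: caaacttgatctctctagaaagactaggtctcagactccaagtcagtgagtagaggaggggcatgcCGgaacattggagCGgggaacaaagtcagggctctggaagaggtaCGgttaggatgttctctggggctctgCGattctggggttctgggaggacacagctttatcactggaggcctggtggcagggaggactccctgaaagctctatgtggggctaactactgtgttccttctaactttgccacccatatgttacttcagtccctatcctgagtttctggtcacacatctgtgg
Ctss: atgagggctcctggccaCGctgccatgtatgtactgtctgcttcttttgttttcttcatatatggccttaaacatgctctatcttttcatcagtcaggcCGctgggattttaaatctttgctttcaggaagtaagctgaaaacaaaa
These stretches held 13, 4 and 2 CpG.

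In KO the windows lay at *Eps8* (chr6:137648711-137649010, minus strand, no exon), *Nkain1* (chr4:130573424-130573723, minus strand, no exon) and *Hmgn3* (chr9:83145939-83146238, minus strand, overlapping an exon).
Eps8: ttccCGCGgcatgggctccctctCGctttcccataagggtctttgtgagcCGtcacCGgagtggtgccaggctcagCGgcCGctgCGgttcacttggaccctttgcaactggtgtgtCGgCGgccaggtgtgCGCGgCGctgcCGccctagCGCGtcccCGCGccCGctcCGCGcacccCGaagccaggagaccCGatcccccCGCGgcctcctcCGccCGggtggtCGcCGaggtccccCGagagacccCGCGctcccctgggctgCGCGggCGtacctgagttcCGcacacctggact
Nkain1: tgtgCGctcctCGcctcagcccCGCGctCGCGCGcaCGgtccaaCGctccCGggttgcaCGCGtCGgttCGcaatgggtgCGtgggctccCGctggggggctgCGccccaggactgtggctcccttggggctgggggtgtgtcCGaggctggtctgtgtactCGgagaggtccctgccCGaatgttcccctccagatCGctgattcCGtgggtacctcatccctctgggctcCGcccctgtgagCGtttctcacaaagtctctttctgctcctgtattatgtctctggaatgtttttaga
Hmgn3: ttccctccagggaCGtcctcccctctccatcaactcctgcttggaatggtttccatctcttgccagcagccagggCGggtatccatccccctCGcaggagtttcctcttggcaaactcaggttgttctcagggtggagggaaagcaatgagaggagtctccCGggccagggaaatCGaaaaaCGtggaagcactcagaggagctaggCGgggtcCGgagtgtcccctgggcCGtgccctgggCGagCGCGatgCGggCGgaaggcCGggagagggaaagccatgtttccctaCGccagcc
These stretches held 36, 24 and 16 CpG. The ratio of observed to expected CpG was 0.43, 0.20 and 0.32 for the WT stretches and 0.93, 0.79 and 0.56 for the KO stretches. These are 6 stretches only, and the CpG content of all regions is given further on.

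The libraries of WT lay further apart than those of KO. WT replicate 1 had 23297 peaks, WT replicate 2 had 15685, KO replicate 1 had 20853 and KO replicate 2 had 19517. The peaks covered 18.7 and 10.03 Mb in WT, and 13.0 and 14.8 Mb in KO. A peak lay at a TSS of 12192 and 10674 coding genes in WT, and of 11360 and 11625 in KO. Both KO libraries lay between the WT libraries in these values. The WT libraries held 19491 ± 5382 peaks on average (SD, n = 2), and the KO libraries 20185 ± 945 (SD, n = 2). The median peak width was 632 and 546 bp in WT, and 498 and 622 bp in KO. For the peaks, the covered length, the width and the genes the two-sided exact permutation p was 1, 1, 0.67 and 1, where 2 libraries against 2 can give no p under 0.33.

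**Figure D1:**
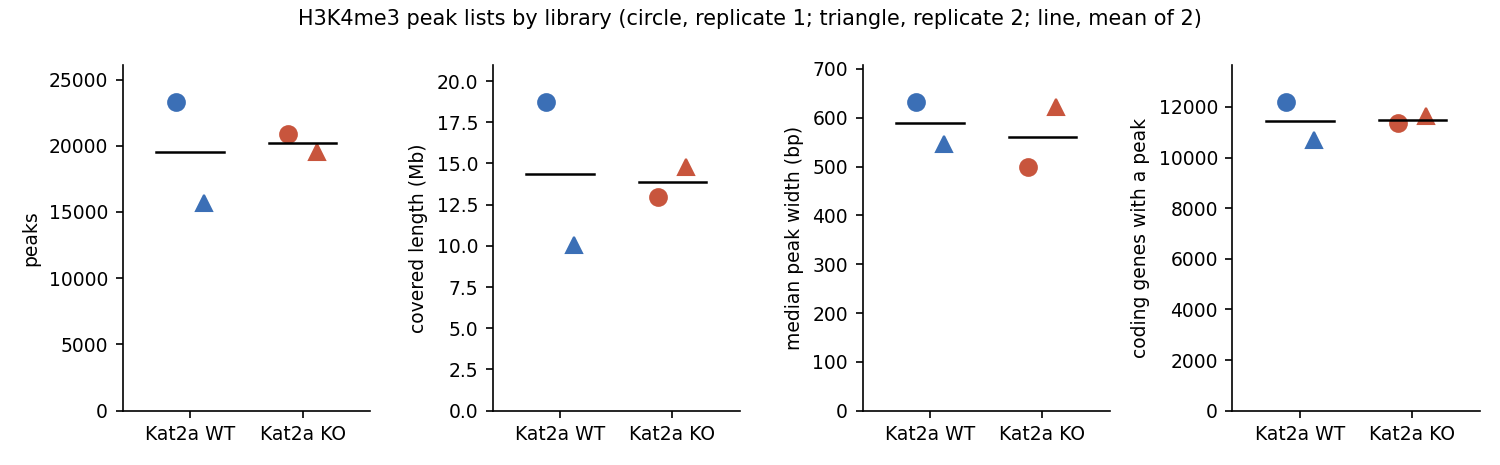
Number of peaks, covered length in Mb, median peak width in bp and number of coding genes with a peak for each H3K4me3 library, with the mean of each genotype as a line. WT replicate 1 (23297 peaks) and WT replicate 2 (15685 peaks) enclose both KO libraries, except in the width.

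*Kat2a* itself (chr11:100704746-100712465, minus strand) had a peak at a TSS in all 4 libraries. Its fold enrichment, the authors' ratio of signal over background at the summit, was 6.497 and 3.52 in WT, and 6.36 and 10.8 in KO. The groups overlapped. The excised part leaves the promoter in place, so a peak there says nothing about the deletion, and the genotype labels could not be checked in these lists.

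The subunits of the complexes in which Kat2a acts were also marked. All 25 genes of SAGA and ATAC on the list had a peak in each of the 4 libraries, among them *Kat2b*, the paralog of *Kat2a*, with folds of 6.28 and 7.27 in WT and 6.71 and 9.998 in KO. The same held for the 14 genes of H3K4 methylation writers, the 6 H3K4 demethylases and the 12 genes of H3K4me3 readers. *Kmt2a*, the methyltransferase whose N-terminus is in the fusion, had folds of 9.97 and 10.7 in WT and 8.18 and 9.14 in KO, so that both KO values lay below both WT values, but no region passed the test of enrichment given further on. *Kdm5b*, a demethylase of H3K4me3, had 13.4 and 8.53 in WT and 9.39 and 9.37 in KO. Over the 32 regions of the SAGA and ATAC list in that test, the median log2 difference in enrichment was -0.19, with 13 higher and 19 lower in KO. In covered length it was 0.05, with 18 higher and 14 lower. Over all tested regions these medians were 0.00 and 0.01.

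The state of most differing genes rested on which single library lacked the peak. Of the 650 genes marked in KO only (2.96% of those tested), 580 (89.2%) had a peak in WT replicate 1 and none in WT replicate 2. A further 10 had one in WT replicate 2 alone, 11 had peaks in both that did not form a consensus at the TSS, and 49 had none. Of the 375 genes marked in WT only (1.71%), 176 had a peak in KO replicate 2 alone, 86 in KO replicate 1 alone, 35 in both and 78 in neither. With WT replicate 2 left out, 59 genes were marked in KO only and 1333 in WT only. With WT replicate 1 left out the counts were 677 and 433, with KO replicate 1 left out 1152 and 170, and with KO replicate 2 left out 990 and 273. Where a library is left out, the remaining library of its genotype stands alone. When the strongest 15685 peaks of each library were used, 510 genes were marked in KO only and 583 in WT only, so that the order of the counts turned.

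**Figure D2:**
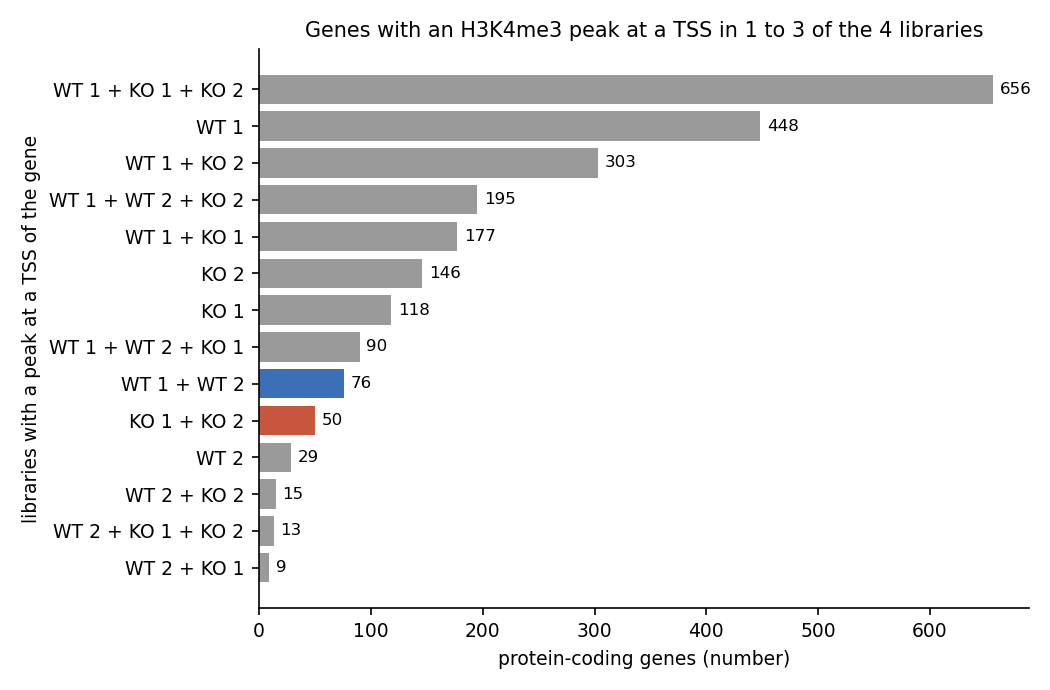
Number of protein-coding genes for each combination of libraries with a peak at a TSS, for genes with a peak in 1 to 3 libraries (WT 1 is WT replicate 1, and so on). The combination without WT replicate 2 alone holds 656 genes, the combination of the WT libraries alone 76 and that of the KO libraries alone 50, while 10247 genes have a peak in all 4.

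Genes that differed in state had weaker peaks than genes marked in both genotypes. The median fold of genes marked in both was 9.21 and 6.00 in the libraries of WT, and 6.42 and 7.95 in those of KO. For genes marked in WT only it was 4.81 and 3.79 in the WT replicates. For genes marked in KO only it was 4.01 and 4.53 in the KO replicates, and 5.01 at the 591 of them with a peak in WT replicate 1. Within each library, the median of the genes that differed in state was thus below that of the genes marked in both. Folds of different libraries were not normalized to each other here.

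Of the 78 genes marked in WT without a KO peak at a TSS (0.356% of all coding genes), 71 had a consensus region that overlapped no KO peak anywhere. At the other 7 a KO peak overlapped the same region just outside the TSS window. Of the 49 genes in KO without a WT peak (0.223%), 43 had such a region and 6 did not. This split was made after the data had been seen. By the smaller of the 2 replicates' folds in the region, *AC140267.1* and *Ttc23* led in WT and *Heca* and *Chd3* in KO, and all 4 were among the genes with a peak of the other genotype beside the window. *Amer2* and *Dnajc22*, also among the first 6 in KO, were so as well. *Brd1*, which encodes a subunit of MOZ and HBO1 acetyltransferase complexes and ranked behind *Chd3*, had 1 region free of WT peaks, with folds of 2.94 and 3.11 (chr15:88734335-88734795), and not its stronger one. The genes whose own region was free of such peaks are therefore described first.

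In WT the highest ranks of this group were held by *Cd302*, *Csf2rb2* and *Ctss*. *Cd302*, a C-type lectin receptor of myeloid cells, had folds of 7.62 and 5.69 in WT over a region of 897 bp (chr2:60283502-60284398) and no peak in KO. *Csf2rb2*, which encodes a receptor subunit for interleukin 3, had 6.68 and 5.06 over 555 bp (chr15:78305023-78305577). Its sequence is close to that of the neighbouring *Csf2rb*, so that the aligner could have split reads between them. *Csf2rb* was marked in both genotypes, with 12.6 and 6.32 in WT and 8.18 and 4.17 in KO. *Ctss*, which encodes cathepsin S, a protease of antigen-presenting cells, had 5.32 and 5.06 over 770 bp (chr3:95526696-95527465). At all 3 loci a consensus of H3K9ac and an H3K27ac peak of replicate 2 were present in both genotypes. The absence of an H3K4me3 peak in KO there did not go with an absence of the acetylation peaks.

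*Rem1*, which encodes a small GTPase of the RGK family, had folds of 4.73 and 4.82 in WT and lacked H3K9ac in both genotypes. *3300002I08Rik* had 4.65 and 5.06 and had H3K9ac in WT and not in KO. *Il18rap*, a subunit of the interleukin 18 receptor, had 5.58 and 4.43, with H3K9ac in both. The group thus held genes with acetylation in both, in one and in neither genotype. *Pdgfra*, a receptor of mesenchymal cells, had 4.65 and 4.11 and no KO peak, and *Cdkn1c*, which encodes the cell cycle inhibitor p57, had 3.72 and 3.72.

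In KO the highest ranks were held by *Eps8*, *Nkain1*, *Adra2a*, *Hrh3* and *Hmgn3*. *Eps8*, an actin-regulating adaptor of growth factor receptors, had folds of 4.58 and 4.84 in KO over 553 bp (chr6:137648646-137649198) and no WT peak. *Nkain1*, which encodes a membrane protein that interacts with the sodium pump, had 4.25 and 4.57 over 364 bp (chr4:130573379-130573742). *Adra2a* and *Hrh3*, an adrenergic and a histamine receptor, had 4.27 and 4.18, and 4.58 and 4.18. *Hmgn3*, a nucleosome-binding protein, had 3.93 and 5.88 over 917 bp (chr9:83145689-83146605). *Eps8* had an H3K9ac consensus in WT and not in KO, while *Nkain1*, *Adra2a*, *Hrh3* and *Hmgn3* had none in either. All these folds lay below the median of the genes marked in both genotypes in the same library.

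Without WT replicate 1 the count of genes marked in KO and without a WT peak rose from 49 to 677. Without KO replicate 1 it was 196, and without KO replicate 2 it was 168. The WT count of 78 was 524 without WT replicate 2, 170 without KO replicate 1 and 273 without KO replicate 2. It was between 73 and 112 with stricter q-values, equal numbers of peaks, a larger overlap, the outermost TSS or a window of 2 kb.

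Among the consensus regions, 284 in WT (2.25%) and 221 in KO (1.6%) overlapped no peak of either library of the other genotype. A further 768 and 1676 overlapped a peak but no consensus region of the other genotype. The remaining 11589 in WT (91.7%) and 11882 in KO (86.2%) overlapped a consensus region. The 284 WT regions had a median width of 530 bp against 1048 bp for all WT regions, and the 221 KO regions one of 422 bp against 930 bp. The median folds were 3.95 and 3.48 for the 284 regions, and 3.47 and 3.55 for the 221. Regions without a peak of the other genotype were thus narrow and weak in both genotypes. Without 1 library in turn the WT count was between 548 (KO replicate 1) and 6298 (WT replicate 2), with 976 without WT replicate 1 and 794 without KO replicate 2. The KO count was 2070 without WT replicate 1, 2622 without KO replicate 1, 3785 without KO replicate 2 and 267 without WT replicate 2.

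These regions lay less often at a coding TSS. Of the 284 WT regions, 129 did (45.4%, 95% Wilson interval 39.7 to 51.2), against 88.2% of all WT regions. Of the 221 KO regions, 110 did (49.8%, 43.2 to 56.3), against 86.7% of all. Introns held 20.4% of the former and 22.2% of the latter. All Wilson intervals cover counting error only, since regions are not replicates.

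Their sequence was also poorer in CpG. In windows of 300 bp around the summit the median ratio of observed to expected CpG was 0.47 in the 284 and 0.54 in the 221 regions, against 0.75 in all regions of either genotype. A window counted as CpG-rich at a GC content of at least 50% and a ratio of at least 0.6. This held for 33.1% (27.9 to 38.8) of the 284 and 36.7% (30.6 to 43.2) of the 221, against 71.3% and 71.0% of all. The WT and KO sets lay within each other's intervals in this share. Regions with a peak but no consensus in the other genotype lay between, with 44.7% in WT and 51.8% in KO.

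H3K9ac, the mark that Kat2a lays down, was present at most regions of both genotypes. A WT consensus of H3K9ac overlapped 95.6% of all WT H3K4me3 regions, and a KO consensus overlapped 92.97% of them. At the 284 regions marked in WT without a KO peak the WT share was 67.6% (62.0 to 72.8) and the KO share 47.5% (41.8 to 53.3). At the 221 regions marked in KO without a WT peak, the WT share was 62.0% (55.4 to 68.1) and the KO share 51.1% (44.6 to 57.6). The H3K9ac share was thus higher in WT than in KO at all regions, at the 284 and, with overlapping intervals, at the 221. Both shares were taken over the same regions, so their separate intervals do not test the difference, which was not tested. H3K9ac peaks come from other libraries, 2 per genotype, of the same pools.

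**Figure D3:**
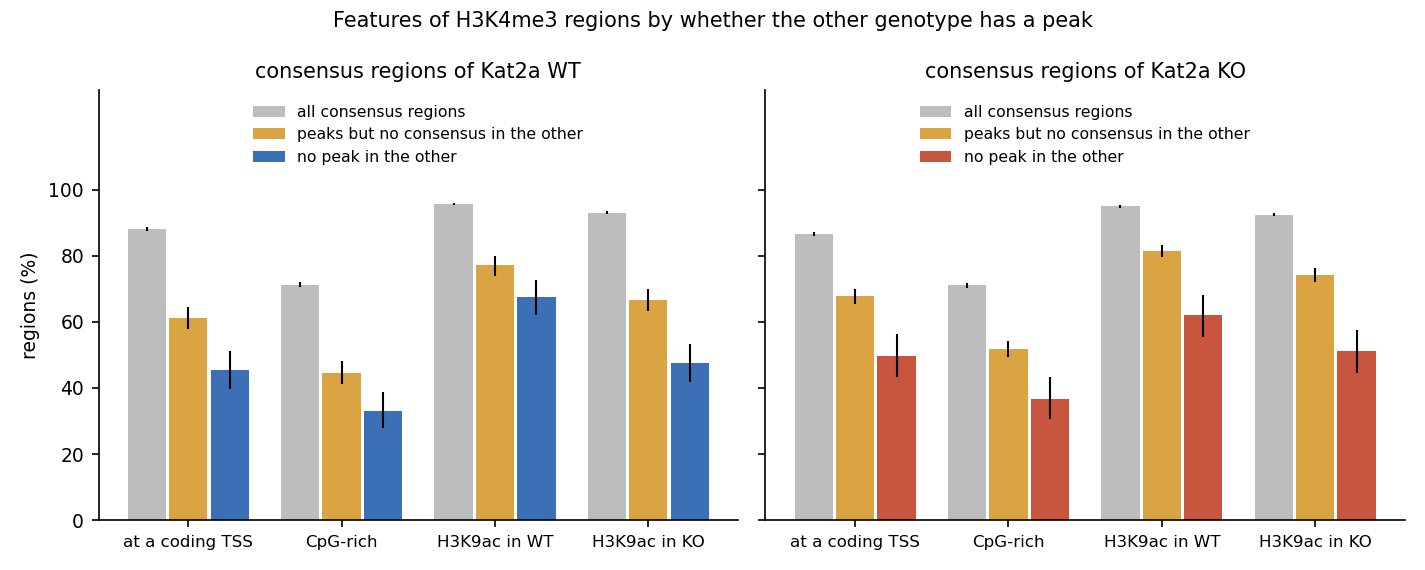
Share of H3K4me3 consensus regions (%) at a coding TSS, with a CpG-rich summit window, and overlapping an H3K9ac consensus region of WT or of KO, for WT regions (left) and KO regions (right), with 95% Wilson intervals as bars. In each feature the regions without a peak of the other genotype are lowest, for example 33.1% CpG-rich against 71.3% of all WT regions.

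Short motifs, 4 in number, were searched on both strands of the same 300 bp windows. The motifs were chosen with earlier results of these data known. CCGGAAG, the core of GABPA sites, was in 8.0% of all WT windows and in 3.9% (2.2 to 6.8) of the 284, and in 8.2% of all KO windows and 3.6% (1.8 to 7.0) of the 221. AGGAAGT, the core of sites of PU.1, was in 4.9% of all WT windows and 9.5% (6.6 to 13.5) of the 284, and in 5.0% of all KO windows and 11.3% (7.8 to 16.2) of the 221. Both hold GGAAG, but 1 site cannot match both. CCAAT, the NFY box, was in 19.3% and 19.1% of all, 26.4% of the 284 and 23.5% of the 221. CACGTG, the E-box bound by Myc and Max, was in 5.7% of all windows of either genotype, 6.3% of the 284 and 5.0% of the 221. The WT and KO sets thus differed from all regions in the same direction for the GABPA core, the PU.1 core and the NFY box, although the interval of the NFY box in KO (18.4 to 29.5) includes the share of all. A match is a run of letters, and no binding was measured here.

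Outside the windows around annotated TSS, the strongest WT regions without a KO peak lay in an intron of *Elf2*, an ETS factor gene (chr3:51333021-51333510, folds 6.35 and 5.09), in an intergenic stretch (chr11:109860223-109860734, 5.01 and 5.43) and in an intron of *Usp47*, which encodes a deubiquitinase (chr7:112024297-112025641, 6.20 and 4.93). In KO they were 2 intergenic stretches (chr3:116436558-116437158, 4.58 and 5.89, and chr17:4907889-4908200, 4.25 and 4.54) and an intron of *Prex1*, a Rac exchange factor of neutrophils (chr2:166711781-166712622, 4.24 and 5.43). All 6 had an H3K9ac consensus in both genotypes.

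The share of genes under a peak was highest at nearly the same distance from the TSS in the 4 libraries, and the extent upstream differed. Over the 10268 genes marked in both genotypes, this maximum lay 250 to 300 bp downstream of the outermost TSS. It reached 86.8% and 74.7% in WT, and 81.0% and 84.1% in KO. At 500 bp upstream it was 41.9% and 25.2% in WT, and 31.4% and 36.0% in KO. At 1000 bp downstream it was 40.7% and 22.8%, and 27.2% and 33.9%. The share was at least 0.5 of its maximum from -450 to 950 bp in WT replicate 1, -50 to 750 bp in WT replicate 2, -300 to 800 bp in KO replicate 1 and -400 to 850 bp in KO replicate 2. The KO curves ran between the WT curves at each of these points.

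**Figure D4:**
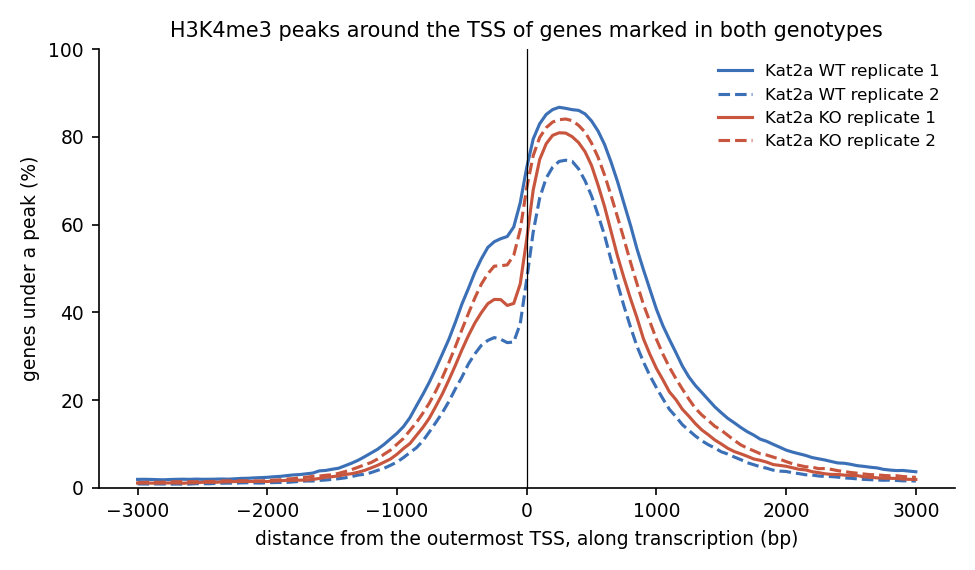
Share of the 10268 genes marked in both genotypes that lie under an H3K4me3 peak (%), by distance from the outermost TSS in bp along the direction of transcription, for the 4 libraries. The curves peak at 250 to 300 bp, and both KO curves lie between WT replicate 1 (86.8% at its highest) and WT replicate 2 (74.7%).

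The width of consensus regions changed with the libraries used. At 10292 regions that overlapped 1 to 1, the median log2 ratio of KO to WT width was -0.08, and 60.9% of regions were narrower in KO. The 2 libraries of 1 genotype differed by more, with a median of -0.54 for WT replicate 2 over WT replicate 1 and 0.16 for KO replicate 2 over KO replicate 1. Without WT replicate 1 the median ratio turned to 0.49. It was -0.05 without WT replicate 2, -0.18 without KO replicate 1 and -0.37 without KO replicate 2. No difference in width beyond that between replicates was thus detectable.

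**Figure D5:**
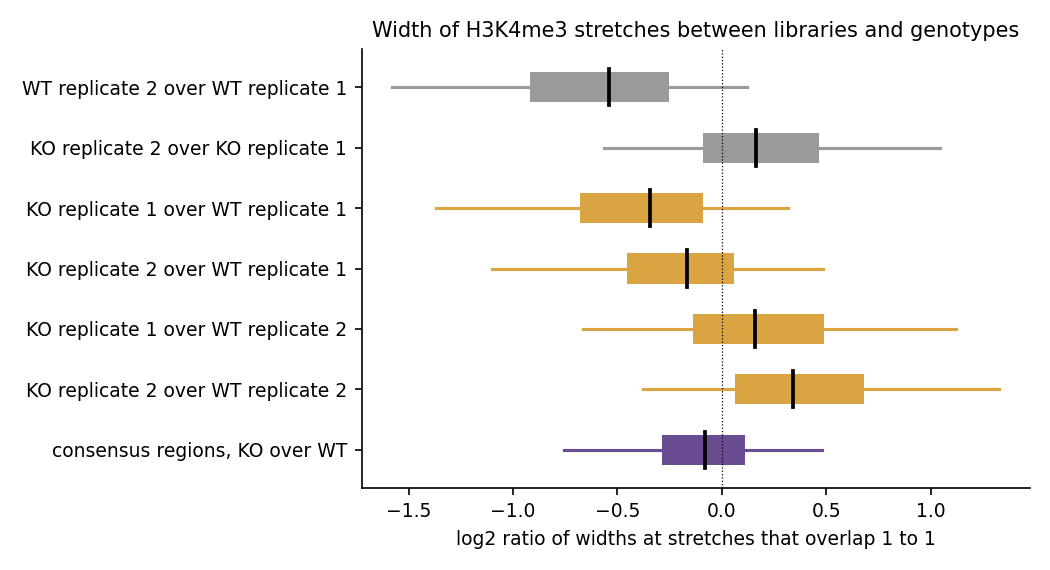
Log2 ratio of widths between pairs of libraries and between the consensus regions of the genotypes, with the median as a line, the quartiles as a box and the 5th to 95th percentile as a thin line. The consensus ratio (median -0.08) lies within the range of the replicate pairs (grey, medians -0.54 and 0.16).

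The widest regions lay at the homeobox genes that MLL fusions keep active. The region at *Meis1*, which encodes a TALE homeobox cofactor of Hox proteins, was the widest in both genotypes, with 9401 bp in WT and 8308 bp in KO (chr11:19012371-19021771 in WT). The region over *Hoxa7* and *Hoxa9* had 7364 bp in WT and 7728 bp in KO (chr6:52220046-52227409 in WT). Next came *Tsc22d2* in WT with 7157 bp (chr3:58413668-58420824). In KO the next was a region of 5889 bp that overlapped *Irf2bp2*, *Gm26759* and an exon (chr8:126586312-126592200), where WT had up to 6294 bp. Within a library the widest peak at *Meis1* was 9401 and 5451 bp in WT and 7535 and 4096 bp in KO, and these groups overlapped.

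Neither the fold enrichment nor the covered length of shared regions passed a test between the genotypes. The test used 11271 stretches, merged over the 4 libraries, that hold a peak of each. With limma on quantile-normalized log2 values, 0 regions (0%) had a higher or a lower fold enrichment in KO at an adjusted p under 0.05, and 568 had an unadjusted p under 0.05 (5.04%). For the covered length, the bases under peaks of a library in the region, the count was also 0 (0%) in each direction, with 550 at an unadjusted p under 0.05 (4.88%). The smallest adjusted p was 0.92 for the enrichment and 0.95 for the length. Between replicates the log2 fold enrichment varied with an SD of 0.39 in WT and 0.38 in KO, and the correlation of 2 libraries was 0.44 in WT, 0.47 in KO and between 0.39 and 0.50 across genotypes. For the covered length, 10 regions passed as longer in KO without WT replicate 1, 3 as shorter without KO replicate 1 and 15 as shorter without KO replicate 2.

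The regions with the smallest p are named although none passed. *Mtf1*, the metal-responsive transcription factor, had folds of 18.7 and 11.7 in WT and 5.94 and 5.56 in KO, a log2 difference of -1.32 ± 0.34 (SE, limma adjusted p = 0.92). *Inpp5f*, a phosphoinositide phosphatase, had 12.7 and 10.7 in WT and 2.24 and 6.23 in KO, and *Ankrd17* had 16.3 and 11.4 and 6.11 and 4.56. The WT and KO values did not overlap in these 3 genes. The genes were chosen for their small p, so this adds nothing to the test. In the other direction *Heatr5a* had 6.01 and 2.60 in WT and 8.38 and 12.2 in KO, a log2 difference of 1.48 ± 0.40 (SE, limma adjusted p = 0.92). *Exosc10*, a catalytic subunit of the nuclear RNA exosome, had 3.23 and 2.83 and 8.13 and 7.01, and *Zfp367* had 12.0 and 3.96 and 14.7 and 15.7.

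For the covered length, *C130050O18Rik* had 1580 and 1331 bp in WT and 401 and 644 bp in KO, a log2 difference of -1.50 ± 0.31 (SE, limma adjusted p = 0.95). *Myo7a*, an unconventional myosin, had 1523 and 1124 bp in WT and 347 and 625 bp in KO, and *Hpgd*, which inactivates prostaglandins, had 4856 and 3459 bp and 2652 and 1691 bp. In the other direction *Ndfip1*, an adaptor of Nedd4 ligases, had 1412 and 701 bp in WT and 1967 and 1866 bp in KO, and *Acsf2* had 286 and 254 bp and 899 and 658 bp.

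The gene lists held 624 different genes, of which 411 were marked in both genotypes, 15 (2.4%) in WT only and 22 (3.53%) in KO only, close to the 1.71% and 2.96% of all genes. All 22 genes marked in KO only had a peak in WT replicate 1 and none in WT replicate 2. Of the 15 marked in WT only, 5 had no peak in either KO library.

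No gene of the *MLL-AF9* self-renewal program was marked in one genotype only. Of its 24 genes, 21 were marked in both genotypes and 3 in neither. The shares of all coding genes were 1.71% in WT only and 2.96% in KO only, at which few of 24 genes would differ. *Hoxa9* had folds of 10.6 and 9.41 in WT and 8.24 and 9.23 in KO. *Hoxa10* had 9.18 and 8.85 in WT and 4.28 and 8.54 in KO. *Meis1* had 8.12 and 7.68 in WT and 7.11 and 15.5 in KO. *Myb*, which encodes a transcription factor that these leukemias need, had 7.57 and 9.80 and 4.22 and 9.17. Of these 4, *Hoxa9* and *Hoxa10* had both KO values below both WT values, but no region passed the test of enrichment. How often this order occurs over all genes was not counted. Of the 30 tested regions of the list, 15 were higher and 15 lower in KO. Over the 30 tested regions of the list the median log2 difference in enrichment was -0.00 and that in length -0.01, against 0.00 and 0.01 over all regions. The genes marked in neither were *Hoxa5*, *Hoxa6* and *Zfp521*, each with a peak in WT replicate 1.

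Myeloid transcription factors were marked in both genotypes in 22 of 25 cases, in KO only in 2 and in neither in 1. The share of all coding genes marked in KO only was 2.96%. *Spi1*, which encodes PU.1, had folds of 8.87 and 8.44 in WT and 7.18 and 10.7 in KO, and *Cebpa*, needed for granulocyte precursors, had 10.6 and 6.63 and 7.11 and 8.16. *Irf8*, a regulator of monocyte and dendritic cell fate, was 1 of the 2 marked in KO only. It had 5.82 in WT replicate 1, no peak in WT replicate 2, and 5.15 and 4.53 in KO. *Cebpb* had a peak in WT replicate 1 and KO replicate 2 only. No member lacked a peak in all 4 libraries.

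Granule and myeloid effector genes were marked less regularly. Of 30 genes, 13 were marked in both genotypes, *Elane* in WT only, 4 in KO only and 12 in neither. Among all coding genes 1.71% were marked in WT only and 2.96% in KO only. *S100a9*, *Mmp9*, *Itgam* and *Csf2ra* were the 4 marked in KO only. Each of these 4 had a peak in WT replicate 1 and none in WT replicate 2. *Itgam*, which encodes CD11b, had a fold of 6.82 in WT replicate 1, no peak in WT replicate 2, and 6.06 and 5.88 in KO. *S100a9* had 4.23 in WT replicate 1 and 2.94 and 5.23 in KO. *Elane*, neutrophil elastase, had 5.29 in WT replicate 1 and 3.19 in KO replicate 1, and the peaks of WT replicate 2 in its consensus region lay outside the TSS window. *Mpo*, myeloperoxidase, had 3.34 and 3.16 in WT and no KO peak, but its WT peaks did not overlap each other, so it counted in neither. Of the list, 27 genes had a peak in WT replicate 1, 12 in WT replicate 2, and 19 and 22 in the KO replicates.

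Stem and progenitor surface genes were marked in both genotypes in 6 of 14 cases, and *Cd34* and *Il3ra* in KO only. Among all coding genes 2.96% were marked in KO only. *Kit*, the stem cell factor receptor, had 7.69 and 4.74 in WT and 3.17 and 6.57 in KO. *Cd34* had 3.42 in WT replicate 1, no peak in WT replicate 2, and 3.61 and 3.69 in KO. *Il3ra*, the receptor subunit specific to interleukin 3, had 3.55 in WT replicate 1 and 4.06 and 4.28 in KO. Over the 6 tested regions of the list the median log2 difference in enrichment was -0.33, with 1 higher and 5 lower in KO. Over all 11271 regions it was 0.00, with 5653 higher and 5618 lower. Of the 6 regions, 0 had an unadjusted limma p under 0.05 for enrichment. The median difference in length was 0.06, with 4 higher and 2 lower.

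Markers of other blood and stromal cells were mostly unmarked. Of 12 genes of the B lineage 2 were marked in both genotypes, *Cd79b* and *Vpreb1*. Of 16 genes of T and NK cells, *Tbx21* was marked in both, *Lck*, *Gata3*, *Tcf7* and *Eomes* in KO only, and *Cd3e* had no peak. *Gata3*, for example, had 3.81 in WT replicate 1, no peak in WT replicate 2, and 5.21 and 4.18 in KO. Of 14 erythroid genes, *Tfrc* was marked in both and 2 in KO only, among them *Epor*, and *Gata1* and *Hbb-bs* had no peak. Of 10 megakaryocyte genes *Gp1bb* and *Itgb3* were marked in both, and *Pf4* had no peak. Of 12 genes of stroma and endothelium *Cxcl12* and *Kdr* were marked in both, and *Kitl* and *Pdgfra* in WT only. Across these 5 lists, peaks were found at 3, 5, 3, 3 and 6 genes in WT replicate 1, at 3, 1, 1, 3 and 4 in WT replicate 2, at 2, 5, 3, 3 and 3 in KO replicate 1 and at 2, 5, 4, 2 and 4 in KO replicate 2. Some genes of each of these lists thus had peaks, while *Cd3e*, *Gata1*, *Hbb-bs* and *Pf4* had none. Among all coding genes 1.71% were marked in WT only and 2.96% in KO only. Each gene of these lists marked in KO only had a peak in WT replicate 1 and none in WT replicate 2. The part of other cells in the differing states was not tested.

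In the Myc and Max network, 10 of 13 genes were marked in both genotypes. *Myc* had folds of 9.97 and 6.12 in WT and 5.29 and 5.31 in KO, which do not overlap, but no region passed the test. Over the 12 tested regions of the network the median log2 difference in enrichment was 0.06, with 8 higher and 4 lower in KO. In covered length it was 0.09, with 7 higher and 5 lower. *Mga* and *Mlxipl* were marked in WT only, each with a peak in KO replicate 2, and *Mycn* in KO only. Of 9 cell cycle inhibitors 8 were marked in both, and *Cdkn1c* was the gene without a KO peak. Beside the counts of both lists, 1.71% of all coding genes were marked in WT only and 2.96% in KO only. *Cdkn2a*, which encodes p16 and p19 ARF, had 11.4 and 4.79 in WT and 12.8 and 11.1 in KO, the largest folds over its TSS. A further KO region at a TSS of *Cdkn2a* (chr4:89281867-89282379) had folds of 3.60 and 3.48 and overlapped no WT peak. Over the 10 tested regions of this list the median log2 difference in enrichment was 0.33, with 7 higher and 3 lower in KO, against 0.00 over all regions. In covered length it was 0.01, with 5 higher and 5 lower.

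Genes of the interferon and inflammatory response, of interest because pIpC acts through interferon, were marked in both genotypes in 13 of 23 annotated cases. *Isg15* was marked in WT only, as were 1.71% of all coding genes, with 4.34 and 3.17 in WT and 3.47 in KO replicate 1 alone. *Mx1*, whose promoter drives the recombinase, had no peak in any library, and *Ifit1* had one in WT replicate 1 alone.

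Genes of translation and respiration were marked almost throughout. All 36 complex I subunit genes had a peak in each library. Of 82 cytosolic ribosomal protein genes 79 did, and *Rpl10l*, *Rpl39l* and *Rpl3l*, which encode tissue-restricted paralogs, had none in any library. Of 78 mitochondrial ribosomal protein genes 75 were marked in both, *Mrpl45* in WT only and *Mrpl52* and *Mrpl54* in KO only. Of 55 genes of translation initiation factors 49 were marked in both, and *Eif1* and *Eif4enif1* in KO only. For comparison, 1.71% of all coding genes were marked in WT only and 2.96% in KO only. *Eif1* had 6.02 in WT replicate 1, no peak in WT replicate 2, and 4.76 and 4.85 in KO. The median log2 difference in enrichment was 0.04 for the cytosolic and -0.04 for the mitochondrial ribosomal proteins and -0.06 for complex I. For the initiation factors it was -0.07, with 24 regions higher and 35 lower in KO. Over all regions it was 0.00.

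Developmental genes, often held silent with a low H3K4me3 level in blood, made up the longest list. Of 85 developmental transcription factors 13 were marked in both genotypes, 6 in WT only, 3 in KO only and 63 in neither, where 1.71% and 2.96% of all coding genes were marked in WT only and in KO only. *Nkx6-1*, *Otx1* and *Tbx6* had peaks in both WT libraries and in no KO library, with folds of 6.02 and 3.64, 6.86 and 3.79, and 3.55 and 3.48. *Lhx2*, *Tbx1* and *Tbx15* were marked in KO only and had a peak in WT replicate 1. Peaks were found at 35 genes of the list in WT replicate 1, 18 in WT replicate 2, and 19 and 23 in the KO replicates. Of the 39 Hox genes 8 were marked in both, 7 of them in the Hoxa cluster with the posterior *Hoxa9* and *Hoxa10*, and *Hoxb7* in WT only.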

How the data were processed

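The authors aligned reads with BWA to mm10 and called narrow peaks with MACS2 in each library on its own, versions not given in the sources used here. The deposited lists give per peak the fold over background (a ratio), the −log10 p-value and −log10 q-value, and the summit position as an offset in bp. They also hold peaks that miss the stated q-value of 0.05, with −log10 p down to 2.02, and no counts, so the depth is unknown. Input libraries, and replicate 1 of H3K27ac and H3K4me1, were not used here.

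Regions and gene states were computed with Python 3.11.15, numpy 2.4.6, scipy 1.17.1 and pysam 0.24.0. Sequences came from GRCm38.p6, the assembly of mm10 (RefSeq). Regions with a peak in all 4 libraries were tested with limma 3.58.1 (R 4.3.3): log2 values, quantile normalization, mean trend, Benjamini-Hochberg adjustment over 11271 regions. Interval code and limma steps were tested on simulated data. Counts of genes or regions got no test. Replicates of a genotype share 1 pool, so p-values measure only technical spread.

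Named genes were *Kat2a*, per genotype the 6 marked genes without a peak of the other genotype with the largest smaller fold, 3 such regions away from a TSS, the 3 widest regions, per direction the 3 regions with the smallest p where none passed, and list members that differed (up to 6) or not (up to 3). *Pdgfra*, *Cdkn1c*, *Csf2rb*, *Mpo* and other genes outside this rule were chosen after their values were seen. A few genes that this rule names are not reported here. Members and lists were chosen with earlier results of these data known. Alternatives were other peak thresholds, equal numbers of peaks, other overlaps, TSS windows, normalizations and each library left out.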

Additional observations from a re-analysis of the deposited data

How the results depend on the processing

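Peaks with −log10 q of at least 5 left 633 genes marked in WT only, 1512 in KO only, and 138 WT and 89 KO regions without a peak of the other genotype. Equal numbers of peaks gave 583 genes in WT only and 79 in KO without a WT peak. The union of replicates gave 314 genes in KO only and, without a peak of the other genotype, 553 genes and 6772 regions in WT and 314 genes and 6041 regions in KO. No peak within 1 kb left 118 KO regions. Per library, the KO minus WT difference turned to -109.5 peaks and to 0.31 percentage points at a coding TSS with q-values of at most 0.05, and to 0.48 points and -63.5 genes with equal numbers. With replicates left out, genes marked in WT only ranged from 170 to 1333 and in KO only from 59 to 1155. Genes without a peak of the other genotype ranged from 105 to 1022 in WT and from 59 to 1155 in KO, and regions from 548 to 8403 and from 267 to 6536. The median log2 width ratio ranged from -0.37 to 0.49, regions longer in KO from 0 to 10 and shorter from 0 to 15. Genes marked in both kept within 1.5 times the reported count in all settings. The cause of the other changes was not tested. The lists give no depth, so a missing peak is not an absent mark.

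After quantile normalization, differences between replicates correlated across genotypes at -0.005 for enrichment and -0.04 for length. This normalization removes shifts common to all regions of a library. Whether libraries with the same replicate number were handled together therefore cannot be told from these values. With the replicate block, 1 region passed as shorter in KO and 0 as longer, and 0 passed for enrichment in either direction.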
